A study of Mus musculus with 18 samples.

Results

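The transcripts of 10 Toll-like receptor genes (Tlr1 to Tlr9 and Tlr13) were followed in 18 RNA sequencing libraries of mouse bone marrow-derived macrophages. The genes were taken by symbol from the table of 21380 gene identifiers, and all 10 passed the filter on low counts. Marrow was taken from femurs of wild-type (WT) animals or of Ldha knockouts (KO). Ldha encodes the A chain of lactate dehydrogenase, which interconverts pyruvate and lactate. All cultures were grown for 7 days with macrophage colony-stimulating factor (30 ng/mL) and 15% serum. They were then left untreated, or received interferon gamma (IFN-gamma) or interleukin 4 (IL-4) for 24 h, which gives 6 groups of 3 libraries. The labels carry 3 numeric codes per genotype, and each code has 1 library per treatment. Each code is read here as 1 animal, which the labels do not state. The series title calls the lactate dehydrogenase expression macrophage-specific, and the labels name no Cre line, promoter, strain, age or sex.

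Toll-like receptors are membrane proteins that bind conserved microbial molecules and start inflammatory signalling in macrophages. Those at the cell surface mostly bind lipids and proteins of bacterial walls and flagella. Those in endosomes bind RNA or DNA set free when a particle is digested, and they depend on the chaperone Unc93b1 and on proteases that trim them. Signalling runs through the adaptor Myd88, except for Tlr3, which uses Ticam1, and Tlr4, which uses both, and ends at NF-kappaB and interferon regulatory factors. IFN-gamma is the textbook signal of classical macrophage activation and IL-4 that of alternative activation.

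Library depth was 9.77 to 49.5 M reads, with a median of 30.9 M. Values below are normalized counts, that is, reads divided by a size factor per library. Changes are log2 differences ± SE from limma over 14288 genes, and a gene was called where the adjusted p was under 0.05. The p-values measure the spread between these libraries, which may be technical. The untreated WT libraries held 12204, 11939 and 10712 Ldha counts and the KO libraries 2128, 2261 and 2591. For Lyz2, the macrophage lysozyme, they held 700319, 622865 and 571538 and 689, 873 and 790.4. Both were lower in every KO library than in any WT library of each treatment. With IFN-gamma the KO libraries still held 9190, 9315 and 10124.5 Ldha counts, against 36752, 38896 and 36197 in WT. The Ldha transcript was thus reduced and not absent in KO. Lower Ldha and lower Lyz2 cannot be told apart in any KO against WT value. Of 8 listed macrophage markers, Adgre1 and Csf1r had high mean counts in all groups (40058 to 68091 and 58368 to 96442). The Adgre1 mean was lower in KO in every treatment, at 40058 against 59075 with IL-4. That of Csf1r was higher in KO untreated and with IFN-gamma (70954 against 58368). Itgam was at 2168 in KO and 3411 in WT with IFN-gamma, but at 4869 and 4045 untreated. Fcgr1 ran from 2339 in KO with IL-4 to 30186 in WT with IFN-gamma. Mertk ran from 747 to 12239 in the same groups and was lower in KO in every treatment. Mrc1, the mannose receptor, was at 171 in WT and 94.6 in KO with IFN-gamma and at 59662 and 29659 with IL-4. Summed counts reached at most 63.5 for 4 of 9 listed neutrophil markers, 60.6 for 3 of 5 B cell markers and 14.7 for the only T and NK cell marker measured, Klrb1c, which was at 0 in all WT IFN-gamma libraries. The markers of these lists that had no row were not analysed here. Summed stromal markers (8 of 10 measured) ranged higher in KO, with some overlap, at 437 to 1523 against 186 to 477 untreated, 277 to 949 against 160.1 to 311 with IFN-gamma and 479.5 to 1466 against 222 to 847 with IL-4. Their part in the genotype values was not tested. Among the IFN-gamma libraries, WT replicate 1 stood apart: its chi-square per gene was 60.8 and 67.1 against WT replicates 2 and 3, which differed from each other by 4.72. Every receptor except Tlr5 had its lowest WT IFN-gamma count in that library, and calls of named genes that turn on it are given with and without it. With IL-4 the chi-square per gene was 59.6 (replicates 1 and 2), 46.5 (1 and 3) and 66.2 (2 and 3) in WT. In KO with IL-4 it was 26.6, 59.3 and 27.3 for the same pairs. The library of 9.77 M reads was WT IL-4 replicate 2. The 3 receptors on the X chromosome (Tlr7, Tlr8 and Tlr13) were compared without a sex label, and Xist was at 11972 to 22656 in all libraries.

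The 4 receptor genes that rose with IFN-gamma in both genotypes, and Tlr8, which moved in opposite directions with IFN-gamma and IL-4, are shown by the 250 bases before their RefSeq start (GRCm38.p6, 5′ to 3′ on the gene's strand). Capitals mark every match, on either strand, to 4 motifs. They are the interferon-stimulated response element (ISRE, GAAA, any 2 bases, GAAA), the STAT6 element (TTC and GAA with any 4 bases between them), the NF-kappaB element (GGGA, any 4 bases, CC) and the PU.1 element (AGGAAGT). Windows were available for 8 of the 10 genes and none was used for Tlr4 and Tlr7. The Tlr9 window is chr9:106222348-106222597 on the plus strand. On the minus strand are the Tlr3 window chr8:45410381-45410630, the Tlr8 window chrX:167264330-167264579 and 1 of the 2 Tlr1 windows, chr5:64933559-64933808. Tlr6 has 2 windows, chr5:64959167-64959416 (a) and chr5:64960049-64960298 (b), on the same strand, and both are printed.
Tlr9: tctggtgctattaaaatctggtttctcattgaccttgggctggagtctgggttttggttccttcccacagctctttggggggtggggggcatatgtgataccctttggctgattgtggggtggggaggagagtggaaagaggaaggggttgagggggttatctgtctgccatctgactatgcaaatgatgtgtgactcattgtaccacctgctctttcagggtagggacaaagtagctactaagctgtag
Tlr3: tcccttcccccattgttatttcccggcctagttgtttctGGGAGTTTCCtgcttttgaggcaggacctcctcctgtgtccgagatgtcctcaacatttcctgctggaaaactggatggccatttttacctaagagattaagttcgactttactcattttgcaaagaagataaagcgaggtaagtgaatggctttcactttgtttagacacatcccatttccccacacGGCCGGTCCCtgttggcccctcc
Tlr1: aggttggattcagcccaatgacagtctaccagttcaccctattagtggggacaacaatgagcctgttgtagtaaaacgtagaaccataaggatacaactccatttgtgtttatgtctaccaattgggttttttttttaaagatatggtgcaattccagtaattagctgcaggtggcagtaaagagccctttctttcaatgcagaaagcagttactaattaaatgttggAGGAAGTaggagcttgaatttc
Tlr6 a: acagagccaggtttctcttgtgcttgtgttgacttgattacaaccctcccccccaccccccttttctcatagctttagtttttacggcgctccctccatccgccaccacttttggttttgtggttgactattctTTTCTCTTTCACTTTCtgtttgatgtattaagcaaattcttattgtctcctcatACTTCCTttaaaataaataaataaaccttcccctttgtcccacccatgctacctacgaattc
Tlr6 b: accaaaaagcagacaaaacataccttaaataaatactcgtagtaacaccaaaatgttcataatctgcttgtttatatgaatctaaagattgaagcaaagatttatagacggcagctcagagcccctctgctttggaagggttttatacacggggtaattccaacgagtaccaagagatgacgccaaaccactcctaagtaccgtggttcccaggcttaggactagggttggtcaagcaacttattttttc
Tlr8: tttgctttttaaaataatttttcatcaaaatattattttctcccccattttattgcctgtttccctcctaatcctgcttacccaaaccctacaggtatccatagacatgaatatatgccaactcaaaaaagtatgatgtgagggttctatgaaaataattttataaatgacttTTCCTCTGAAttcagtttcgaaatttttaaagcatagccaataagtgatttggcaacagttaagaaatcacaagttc
In window a of Tlr6 the capitals hold overlapping ISRE matches (TTTCTCTTTC and TTTCACTTTC on the printed strand) at -116 to -107 and -110 to -101 from the start, and a PU.1 match further down. The start of window a lies inside the annotated gene, and the bases after it were not found in a GENCODE M21 transcript. Those after window b, whose start also lies inside the annotated gene, were found in one, and window b holds none of the 4 motifs. The Tlr8 window holds a STAT6 element match (TTCCTCTGAA) at -77 to -68. In the Tlr3 window the matches are NF-kappaB elements, GGGAGTTTCC at -211 to -202 and GGCCGGTCCC at -23 to -14. This window lies wholly inside the annotated Tlr3 gene, and the bases after it were found in a GENCODE M21 transcript. No searched motif occurs in these 250 bases of Tlr9. The printed Tlr1 window holds a PU.1 match at -22 to -16. Among the windows not printed, Tlr2 holds the palindrome GGGAATTCCC at -172 to -163 and Tlr5 an NF-kappaB match, while Tlr13 and the other Tlr1 window hold none. Over all 32851 mouse windows of this length, 2.98% hold the ISRE, 5.85% the STAT6 element, 17.6% the NF-kappaB element and 7.69% the PU.1 element. A match describes these letters and is not a measured binding site.

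Per kb of exon, Tlr13 and Tlr7, endosomal receptors that sense RNA, were the most abundant in untreated macrophages (means ± SD of 3 libraries). Tlr13, which binds bacterial ribosomal RNA, led with 2764 ± 226 normalized counts per kb in WT and 2984 ± 46.3 in KO. Tlr7, the receptor for single-stranded RNA, followed with 2354 ± 305 and 1876 ± 156, and the ranges of both genes overlapped in WT only. Tlr2, the lipoprotein receptor, held 1097 ± 62.5 per kb in WT, which overlapped Tlr8 at 990.1 ± 101. Tlr4, the lipopolysaccharide receptor, and Tlr9, which binds CpG-rich DNA, overlapped at 748 ± 93.1 and 748 ± 87. Below them came Tlr1 at 334 ± 24, Tlr6 at 180.3 ± 10.4 and Tlr3 at 117 ± 11.6, whose ranges were separate. Tlr5, the flagellin receptor, was last with 3.33 ± 1.18 per kb in WT and 6.89 ± 3.69 in KO.
The leading receptor differed by treatment. With IFN-gamma, Tlr9 was first at 3559.9 ± 977 per kb in WT and 3290.2 ± 363 in KO, above Tlr13 at 1732 ± 485 and 2022 ± 52.6. With IL-4, Tlr8 was first at 2146 ± 69.2 in WT and 1688 ± 435 in KO. Its range was above that of Tlr13 (1557 ± 124 per kb) in WT and overlapped it in KO (1556 ± 67.5). The plots of counts per library and of levels per kb show both views.

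**Figure D1:**
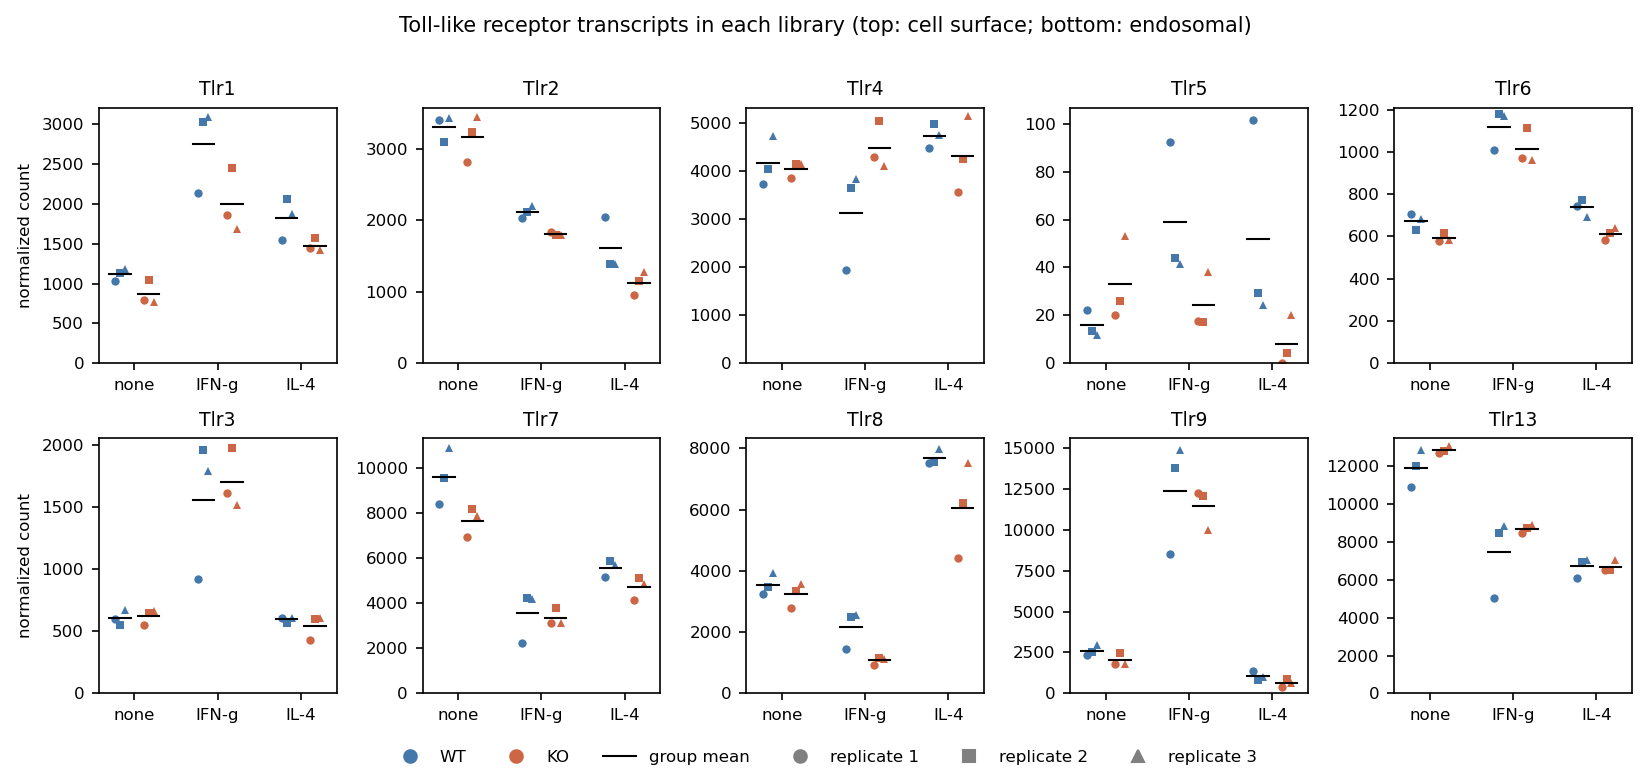
Normalized count (linear axis from 0) of each receptor gene in each library, by treatment (none, IFN-gamma as IFN-g, IL-4) and genotype; marker shape gives the replicate number and the line the mean of 3 libraries. Tlr9 is highest with IFN-gamma and Tlr8 with IL-4, and WT IFN-gamma replicate 1 (circle) is below the other WT IFN-gamma libraries in every gene except Tlr5.

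**Figure D2:**
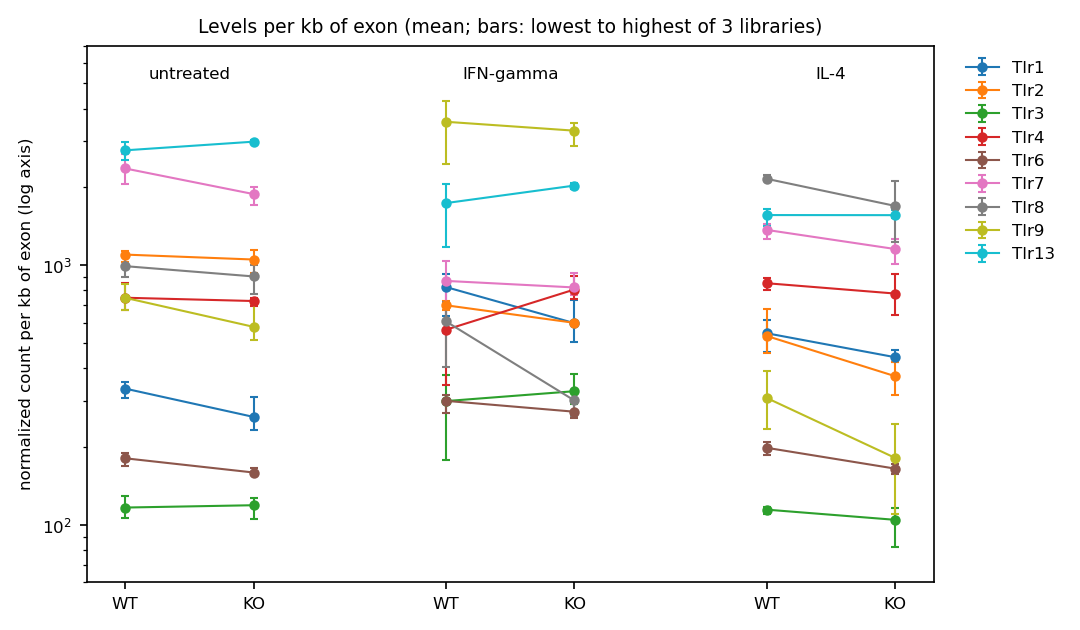
Normalized counts per kb of exon (log axis) of 9 receptor genes in the 6 groups, as means with bars from the lowest to the highest of 3 libraries; Tlr5, which is under the axis, is left out. Tlr13 is on top in untreated cells, Tlr9 with IFN-gamma and Tlr8 with IL-4.

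IFN-gamma changed most of the receptor transcripts, in both directions. In WT cells 4 of 10 rose (Tlr1, Tlr3, Tlr6 and Tlr9) and 5 fell (Tlr2, Tlr4, Tlr7, Tlr8 and Tlr13), beside 62.4% of all genes called (31.4% higher and 31.1% lower). In KO cells the same 4 rose and 4 fell, while Tlr4 was not called, beside 55.8% of all genes (28.3% higher and 27.5% lower). The median size of change over the 10 genes was 1.01 on the log2 scale in WT and 1.00 in KO, against 0.55 and 0.47 over all genes. Whether the count of called receptors differs from that background was not tested. Treated and untreated libraries did not overlap in 9 receptors in WT and 8 in KO, and in 71.1% and 68.9% of all genes. Untreated libraries serve as controls for both cytokines.

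Tlr9 (ENSMUSG00000045322.10, GRCm38 chromosome 9, 106222598 to 106226883, plus strand) had the largest rise among the 10 genes followed. Its count went from 2329, 2547 and 2927 in the WT untreated libraries to 8507, 13778 and 14859 with IFN-gamma, a mean ratio of 4.76. Every treated library was above every untreated one, with replicate 1 the lowest of the treated (2.22 ± 0.253, adjusted p = 5.98e-07). KO cells went from 1784, 2459.9 and 1788 to 12262, 12077 and 9991, a ratio of 5.69, again without overlap (2.52 ± 0.253, adjusted p = 1.49e-07). Tlr3 (ENSMUSG00000031639.12, GRCm38 chromosome 8, 45395665 to 45411080, minus strand), the receptor for double-stranded RNA, rose from 595, 553 and 672 to 924, 1960.4 and 1792 in WT and from 549.5, 646 and 662 to 1614, 1976 and 1515 in KO. Groups did not overlap in either genotype, and WT replicate 1 gained least (1.29 ± 0.208, adjusted p = 3.32e-05 in WT and 1.45 ± 0.208, adjusted p = 1.09e-05 in KO). Tlr3 shares 381 of its 5207 exon bases with the antisense gene Gm45542. The counting's strand setting was not given in the sources used here, so reads in these shared bases cannot be told apart. Markers of conventional dendritic cells, a cell type known for Tlr3, also appeared with IFN-gamma: 4 of 6 were measured, and their summed count was 8.77 to 14.4 untreated and 1491 to 2531 treated in WT, and 13.9 to 30.3 untreated and 1041 to 1323 treated in KO. Most of the treated WT sum was Clec9a (mean 1266) and Xcr1 (788), with Ccr7 at 103 and Zbtb46 near 0 (7.93). In treated KO libraries the means were 714 for Clec9a, 258 for Ccr7, 169 for Xcr1 and 11.4 for Zbtb46. The part of these markers in the receptor values was not tested.

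The other endosomal receptors fell with IFN-gamma. Tlr7 (ENSMUSG00000044583.13, GRCm38 chromosome X, 167304929 to 167330558, minus strand) went from 8398, 9543 and 10882 to 2230.3, 4223 and 4185 in WT and from 6943, 8165 and 7859 to 3119, 3791 and 3128 in KO. All treated libraries were below all untreated ones, at 36.9% and 43.7% of the untreated means (-1.49 ± 0.18, adjusted p = 1.19e-06, and -1.20 ± 0.18, adjusted p = 1.92e-05). Tlr8 (ENSMUSG00000040522.5, GRCm38 chromosome X, 167242696 to 167264329, minus strand) lies 40.6 kb from Tlr7 on the X chromosome, and its mouse protein is held to respond less to RNA than the human one. It fell from 3233, 3474 and 3944 to 1454, 2493 and 2577 in WT (-0.75 ± 0.193, adjusted p = 0.00272). In KO it fell from 2780.2, 3356 and 3587 to 938, 1167 and 1132, to 33.3% of the untreated mean against 61.2% in WT (-1.58 ± 0.193, adjusted p = 1.67e-06). Neither genotype's groups overlapped. Tlr13 (ENSMUSG00000033777.4, GRCm38 chromosome X, 106143204 to 106160493, plus strand) fell from 10884, 11982 and 12823 to 5050.0, 8477 and 8833 in WT and from 12693, 12771 and 13070.3 to 8464, 8735 and 8914 in KO, with no overlap (-0.71 ± 0.143, adjusted p = 3.08e-04, and -0.56 ± 0.143, adjusted p = 0.00283). Without WT IFN-gamma replicate 1 the WT changes were smaller for Tlr7 (-1.18), Tlr8 (-0.481) and Tlr13 (-0.456), and each was still called.

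At the cell surface, Tlr1 and Tlr6, which pair with Tlr2 to bind lipopeptides with different acyl chains, rose while Tlr2 itself fell. Tlr1 (ENSMUSG00000044827.10, GRCm38 chromosome 5, 64924679 to 64933563, minus strand) rose from 1031, 1138 and 1188 to 2132, 3032 and 3092 in WT and from 795, 1043 and 774 to 1858, 2450.4 and 1686 in KO. The treated libraries were all above the untreated ones (1.28 ± 0.158, adjusted p = 1.5e-06, and 1.19 ± 0.158, adjusted p = 4.37e-06). Its neighbour Tlr6 (ENSMUSG00000051498.6, GRCm38 chromosome 5, 64952031 to 64960097, minus strand), 18.5 kb away, rose from 705, 629.7 and 681 to 1008, 1178 and 1169 in WT and from 578, 618 and 582 to 973, 1112 and 962 in KO. These groups were separate too (0.73 ± 0.0851, adjusted p = 7.51e-07, and 0.77 ± 0.0851, adjusted p = 4.63e-07). Tlr2 (ENSMUSG00000027995.10, GRCm38 chromosome 3, 83836272 to 83841767, minus strand) fell from 3404, 3089 and 3426 to 2029, 2108 and 2191 in WT and from 2818, 3232 and 3444 to 1832, 1789 and 1796 in KO. Treated and untreated libraries of Tlr2 did not overlap (-0.65 ± 0.129, adjusted p = 2.88e-04, and -0.80 ± 0.129, adjusted p = 3.79e-05).

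Tlr4 and Tlr5 gave less stable values. Tlr4 (ENSMUSG00000039005.13, GRCm38 chromosome 4, 66827584 to 66930284, plus strand) stood at 3716, 4029.6 and 4726 in WT untreated libraries and 1926, 3650.3 and 3818 with IFN-gamma. Replicate 1 was far below the other libraries, replicate 2 was just under the untreated range and replicate 3 within it (-0.47 ± 0.19, adjusted p = 0.0416). The call was lost without replicate 1 (-0.15, adjusted p = 0.339), without WT untreated replicate 2 or 3, with edgeR (0.0519) and when only the groups compared were fitted (0.144). In KO, Tlr4 was at 3853, 4132 and 4131 untreated and 4282, 5038 and 4098 treated, a difference with a 95% interval of -0.26 to 0.54 (0.14 ± 0.19, adjusted p = 0.549). Tlr5 (ENSMUSG00000079164.8, GRCm38 chromosome 1, 182954788 to 182976044, plus strand) rested on few reads, 56 over the WT untreated and 168 over the WT IFN-gamma libraries. Its counts were 22.4, 13.5 and 11.9 untreated and 92.3, 44 and 41.3 treated in WT, without overlap, and the adjusted p of 0.0589 missed the threshold (1.78 ± 0.79). With the animal as a block it passed (adjusted p = 0.00482), as it did with edgeR (0.0188) and DESeq2 (0.0372). KO libraries held 19.9, 26 and 53.1 untreated and 17.4, 17.3 and 38.3 treated, which overlapped (-0.40 ± 0.79, adjusted p = 0.688).

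IL-4 raised Tlr8 and Tlr1 and lowered Tlr2, Tlr7, Tlr9 and Tlr13 in both genotypes. These 6 receptors were called in WT, beside 30.3% of all genes (16.3% higher and 14.0% lower), and the same 6 and Tlr5 in KO, beside 30.2% (15.8% higher and 14.5% lower). Libraries did not overlap in 7 receptors in WT and 6 in KO, and in 43.7% and 47.7% of all genes. The median size of change was 0.80 in WT and 0.82 in KO over the 10 genes, against 0.28 and 0.27 over all genes. Tlr8 reached its highest counts here, 7535, 7574 and 7983 in WT and 4417, 6219.6 and 7524 in KO. All were above the untreated libraries, and KO spanned a wider range than WT (1.12 ± 0.193, adjusted p = 2.43e-04 in WT and 0.88 ± 0.193, adjusted p = 0.00201 in KO). Tlr1 rose to 1542, 2059 and 1879.9 in WT and 1443, 1573 and 1416 in KO, above every untreated library (0.70 ± 0.158, adjusted p = 0.0025, and 0.77 ± 0.158, adjusted p = 0.00102).

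The largest falls that passed in both genotypes were those of Tlr9 and Tlr2. Tlr9 dropped to 1365, 813 and 1029.6 in WT and 383, 852 and 651 in KO, 41.1% and 31.3% of the untreated means. All were below the untreated libraries (-1.31 ± 0.253, adjusted p = 6.95e-04, and -1.73 ± 0.253, adjusted p = 4.13e-05). Tlr2 dropped to 2044, 1390.2 and 1385 in WT, where replicate 1 was the highest, and to 949, 1144 and 1281 in KO, again clear of the untreated range (-1.06 ± 0.129, adjusted p = 6.19e-06, and -1.50 ± 0.129, adjusted p = 1.02e-07). Tlr13 fell to 6088, 6961 and 7057 in WT and 6538, 6520.4 and 7032 in KO, without overlap (-0.83 ± 0.143, adjusted p = 2.47e-04, and -0.94 ± 0.143, adjusted p = 6.26e-05). Tlr7 fell to 5163, 5869 and 5679.6 in WT and 4123, 5133 and 4851 in KO, also without overlap (-0.78 ± 0.18, adjusted p = 0.00296, and -0.71 ± 0.18, adjusted p = 0.00591).

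The receptors Tlr3, Tlr4 and Tlr6 did not pass with IL-4 in either genotype. Tlr3 was at 611, 570.5 and 605 in WT and 428, 601 and 603 in KO, overlapping the untreated counts, with 95% intervals of -0.46 to 0.41 and -0.64 to 0.24 for the change. Tlr4 was at 4472, 4964 and 4747 and 3556, 4241 and 5145, with intervals of -0.21 to 0.59 and -0.32 to 0.48. For Tlr6 the counts were 744, 774 and 694 and 585, 617 and 637, and the intervals -0.05 to 0.31 and -0.13 to 0.23. Tlr5 again rested on few reads. WT IL-4 libraries held 102, 29.5 and 24.4, all above the untreated ones (1.39 ± 0.79, adjusted p = 0.198, and adjusted p = 0.0367 with the animal block). KO IL-4 libraries held 0, 4.18 and 20, with replicate 3 overlapping the untreated range (-2.71 ± 0.79, adjusted p = 0.0142). That call was lost with edgeR (adjusted p = 0.0658), with DESeq2 (0.0619), in a fit of the groups compared (0.0702), without KO untreated replicate 3 (0.0696) and without KO IL-4 replicate 1 (0.0951).

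**Figure D3:**
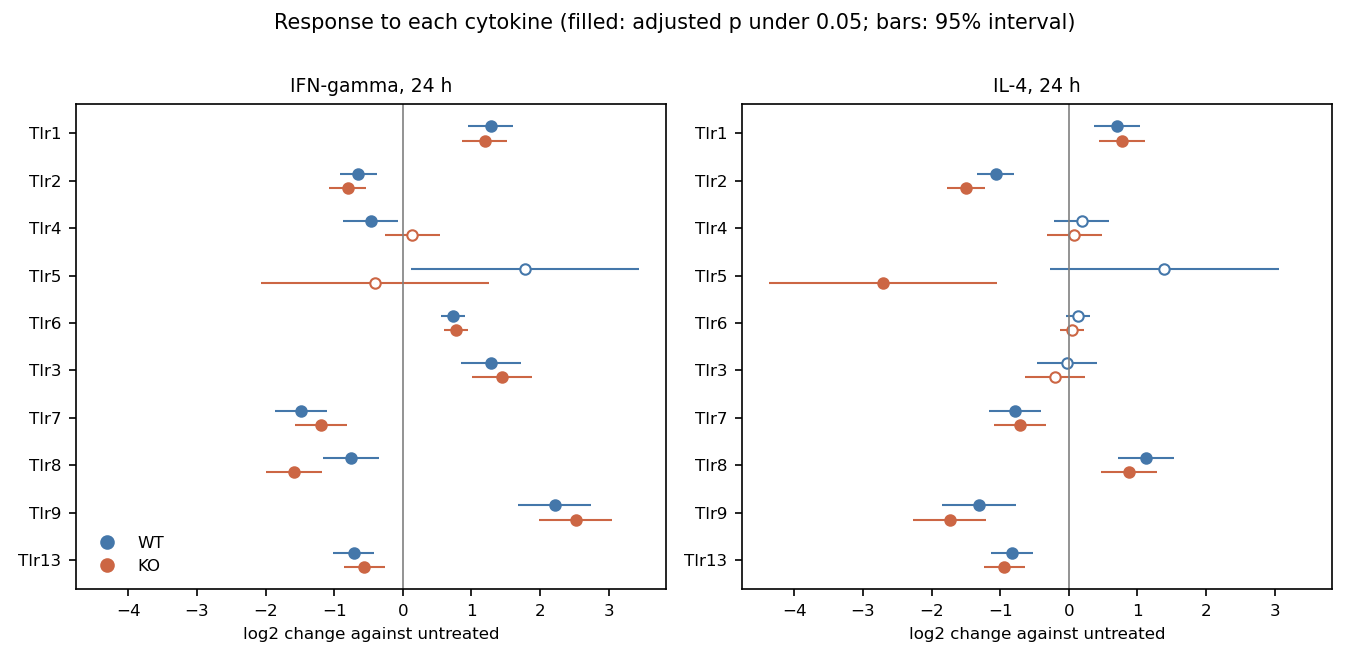
Log2 change against untreated cells of the same genotype after 24 h of IFN-gamma (left) or IL-4 (right), WT in blue and KO in orange; bars are 95% intervals and filled points passed an adjusted p of 0.05. Tlr9 is at 2.22 and 2.52 with IFN-gamma and at -1.31 and -1.73 with IL-4, and Tlr8 is below 0 with IFN-gamma and above 0 with IL-4.

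In untreated macrophages no receptor passed the test between KO and WT. With limma, 0 of 10 receptors were called, beside 1.98% of all genes, and edgeR and DESeq2 also called 0. The 2 with an unadjusted p under 0.05 were Tlr1 and Tlr6. Tlr1 was at 795, 1043 and 774 in KO and 1031, 1138 and 1188 in WT, which overlapped slightly (-0.37 ± 0.158, adjusted p = 0.332). Tlr6 was at 578, 618 and 582 against 705, 629.7 and 681, without overlap (-0.18 ± 0.0851, adjusted p = 0.416). Tlr7 was the other gene whose KO libraries (6943, 8165 and 7859) all lay under WT (8398, 9543 and 10882), with an adjusted p of 0.54 (-0.32 ± 0.18). Libraries did not overlap in 30.1% of all genes in this comparison. The 95% intervals of the KO against WT difference were -0.34 to 0.20 for Tlr2, -0.44 to 0.37 for Tlr4 and -0.19 to 0.42 for Tlr13. They were wider for Tlr9 (-0.92 to 0.15) and widest for Tlr5 (-0.73 to 2.60).

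Under IFN-gamma, KO cells held less Tlr8 and Tlr1 than WT cells and more Tlr4. Of 10 receptors 3 were called, 1 higher and 2 lower, beside 27.9% of all genes (14.3% higher and 13.6% lower). Tlr8 was at 938, 1167 and 1132 in KO and 1454, 2493 and 2577 in WT. Every KO library was below every WT library, and the KO mean was 49.6% of the WT mean (-0.97 ± 0.193, adjusted p = 0.00135). Tlr8 kept its call in all alternatives, with a change of -1.24 to -0.825 when a library was left out. Tlr1 was at 1858, 2450.4 and 1686 in KO and 2132, 3032 and 3092 in WT, and KO replicate 2 overlapped WT replicate 1 (-0.46 ± 0.158, adjusted p = 0.0375). Its call was lost with TMM scaling (adjusted p = 0.05), in a fit of the groups compared (0.111) and without WT replicate 2 or 3 or KO replicate 1 or 3 (up to 0.155). Tlr4 was at 4282, 5038 and 4098 in KO and 1926, 3650.3 and 3818 in WT, with all KO libraries above WT and WT replicate 1 far below the rest (0.57 ± 0.19, adjusted p = 0.0324). Without that library the difference was 0.26, adjusted p = 0.175, and the call was also lost without KO replicate 1 (0.0641) or 2 (0.12) and in a fit of the groups compared (0.137).

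The remaining receptors did not pass in IFN-gamma cells. Tlr2 was at 1832, 1789 and 1796 in KO and 2029, 2108 and 2191 in WT, separate but close (-0.22 ± 0.129, adjusted p = 0.214). Tlr5 was separate as well, at 17.4, 17.3 and 38.3 against 92.3, 44 and 41.3 (-1.25 ± 0.79, adjusted p = 0.262). The other genes overlapped, and their 95% intervals were -0.61 to 0.46 for Tlr9, -0.25 to 0.63 for Tlr3, -0.41 to 0.35 for Tlr7, -0.32 to 0.04 for Tlr6 and -0.03 to 0.57 for Tlr13. The Tlr13 difference of 0.27 was 0.00811 without WT replicate 1. For Tlr7 the difference of -0.0306 reached -0.335 when a library was left out, and the lowest adjusted p by limma was 0.0518. Non-overlap was seen in 42.6% of all genes. In the same libraries summed monocyte markers (5 of 5 measured) were 224 to 458 in KO and 480.2 to 789 in WT. Among them Ccr2 was lower in KO (mean 136 in KO and 280.3 in WT), while Ly6c2 (50 and 22.5) and Vcan (35.9 and 20.9) were higher in KO. In untreated cells the sum was higher in KO, at 283 to 518 against 145 to 268. The part of these cells in the genotype values was not tested.

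Under IL-4, KO cells held less Tlr2 and Tlr5 than WT cells, and 9 of 10 receptors had a log2 difference below 0. The 2 called receptors stand beside 6.59% of all genes called (3.46% higher and 3.13% lower). The median difference of the 10 genes was -0.28, against 0.0112 over all genes. In the same libraries summed conventional dendritic cell markers (4 of 6 measured) were 108 to 131 in KO and 23 to 51.3 in WT. Most of the KO sum was Zbtb46 (mean 63.9) and Ccr7 (45.7), while Clec9a (7.33) and Xcr1 (1.48) were near 0. Plasmacytoid dendritic cell markers (2 of 5 measured) were 187 to 259 in KO and 63.8 to 159 in WT. Most of that KO sum was Cox6a2 (mean 205), with Ccr9 at 7.9. The plasmacytoid sum was also higher in KO untreated (42.4 to 86.5 against 21.7 to 39.9) and with IFN-gamma (148 to 161 against 81.2 to 135). The part of either list was not tested. Tlr2 was at 949, 1144 and 1281 in KO and 2044, 1390.2 and 1385 in WT, all KO below all WT (-0.50 ± 0.129, adjusted p = 0.0272). WT replicate 1 was the highest, and without it the difference was -0.31, adjusted p = 0.0868. The call was also lost without KO replicate 1 (0.132) or 2 (0.0593) and in a fit of the groups compared (0.291). Tlr5, with 37 reads over the KO and 141 over the WT libraries, was at 0, 4.18 and 20 against 102, 29.5 and 24.4, without overlap (-3.17 ± 0.79, adjusted p = 0.0228). It was lost in that fit (0.263) and without WT replicate 1 (0.081), KO replicate 1 (0.103) or KO replicate 2 (0.0547).

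Tlr9 and Tlr6 came close to the threshold. Tlr9 was at 383, 852 and 651 in KO and 1365, 813 and 1029.6 in WT, where KO replicate 2 overlapped WT (-0.81 ± 0.253, adjusted p = 0.0661). It passed with DESeq2 (adjusted p = 0.0248), without WT replicate 2 (0.0394) and without KO replicate 2 (0.025). Tlr6 was at 585, 617 and 637 in KO and 744, 774 and 694 in WT, without overlap (-0.27 ± 0.0851, adjusted p = 0.0727). Libraries of Tlr7 (4123, 5133 and 4851 in KO) and Tlr8 (4417, 6219.6 and 7524 in KO) were also all below WT, at adjusted p of 0.45 and 0.266, beside 20.1% of all genes without overlap. The 95% intervals of the rest were -0.63 to 0.03 for Tlr1, -0.58 to 0.29 for Tlr3, -0.55 to 0.25 for Tlr4 and -0.30 to 0.30 for Tlr13.

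**Figure D4:**
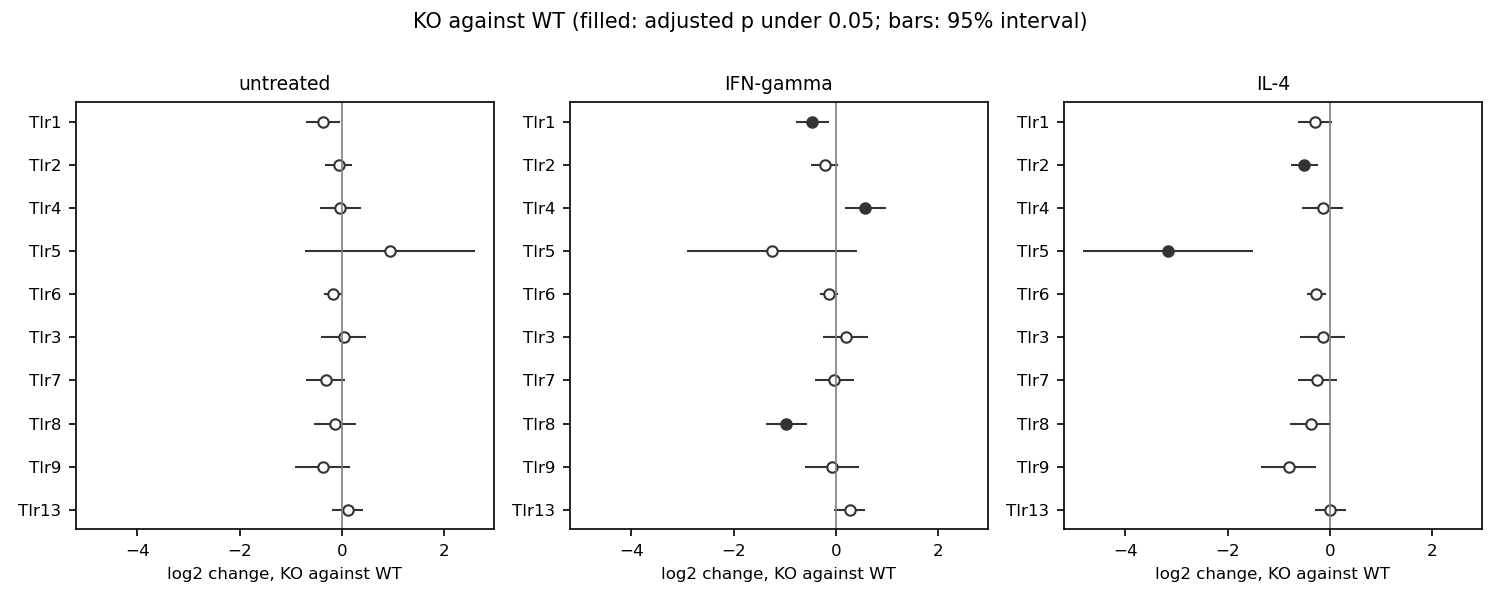
Log2 difference of KO against WT for each receptor gene in untreated, IFN-gamma and IL-4 cells; bars are 95% intervals and filled points passed an adjusted p of 0.05. Filled points are Tlr1, Tlr4 and Tlr8 with IFN-gamma and Tlr2 and Tlr5 with IL-4, and the bars of Tlr5 are the widest.

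Whether a response itself differed between genotypes was tested as an interaction. For IFN-gamma, limma called 0 of 10 receptors, beside 9.15% of all genes. An unadjusted p under 0.05 was seen for 2, Tlr8 and Tlr4, and edgeR and DESeq2 each called 1, Tlr8. The Tlr8 response in KO minus that in WT was -0.84 ± 0.273 (adjusted p = 0.0662). It passed with edgeR (adjusted p = 0.0469), with DESeq2 (0.0149), with the animal block (0.00595) and without WT IFN-gamma replicate 1 (-1.10, adjusted p = 0.00481). The Tlr4 difference of 0.61 ± 0.269 had an adjusted p of 0.18 and was 0.29 without that library. For Tlr9 the interval of the difference was -0.45 to 1.06, and for Tlr6 it was -0.21 to 0.30. For IL-4, limma called 0 of 10, beside 0.007% of all genes, 2 had an unadjusted p under 0.05, and edgeR and DESeq2 called 0. The 2 were Tlr2 (-0.43 ± 0.182, adjusted p = 0.845) and Tlr5 (-4.10 ± 1.12, adjusted p = 0.524, and 0.0424 with the animal block).

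Co-receptors showed genotype differences of their own. Of 6 listed, 5 were tested, since Lbp was too low. With IFN-gamma, 3 rose in WT and 1 in KO, and KO against WT 2 were lower. Over all genes 31.4% rose in WT, 28.3% rose in KO and 13.6% were lower in KO than in WT. Ly86, the partner of the receptor-like protein Cd180, was at 2034, 2445 and 2104 in KO and 5584, 6092 and 5928 in WT IFN-gamma libraries. The groups were far apart (-1.42 ± 0.14, adjusted p = 1.51e-06), and the response itself was lower in KO (-1.07 ± 0.198, adjusted p = 0.00265). Cd14, which passes lipopolysaccharide to Tlr4, was at 21627, 23486 and 37016 in KO and 96375, 47252 and 48005 in WT, where replicate 1 was the highest (-1.18 ± 0.301, adjusted p = 0.00757). Without that library the difference was -0.84, adjusted p = 0.0479. The rise of Cd14 in WT (0.78 ± 0.301, adjusted p = 0.0322) was lost without it (0.44, adjusted p = 0.206) and without any 1 WT untreated library. Its response also differed (-1.45 ± 0.426, adjusted p = 0.0409), a call lost without that library (0.094) or any other 1 of 8 libraries (up to 0.106). Ly96, the lipopolysaccharide-binding subunit of the Tlr4 complex, was at 322, 389.6 and 337 and 309, 366 and 366, which overlapped (0.01 ± 0.141, adjusted p = 0.969). With IL-4, Cd14 fell in WT (-1.09 ± 0.301, adjusted p = 0.0105, and adjusted p = 0.0628 without WT replicate 2) and in KO (-2.18 ± 0.301, adjusted p = 2.3e-05), and Cd36, a scavenger receptor that helps Tlr2 with lipids, rose (1.51 ± 0.203, adjusted p = 1.95e-05, and 1.35 ± 0.203, adjusted p = 5.46e-05). Ly86 was lower in KO with IL-4 too (-0.71 ± 0.14, adjusted p = 0.00519, and adjusted p = 0.122 in a fit of the groups compared).

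Of 12 genes that fold, carry or cleave the endosomal receptors, 4 rose and 3 fell with IFN-gamma in WT, and 6 rose and 3 fell in KO. The list medians were 0.10 and 0.20, against -0.0111 and -0.0128 over all genes. The counts stand beside 62.4% of all genes called in WT (31.4% higher and 31.1% lower) and 55.8% in KO (28.3% higher and 27.5% lower). In IFN-gamma cells KO against WT gave 1 higher and 3 lower, beside 27.9% of all genes. Unc93b1, the chaperone that takes these receptors to endosomes, was at 30893, 27663 and 25859 in KO and 34390.2, 38862 and 39246 in WT, without overlap (-0.42 ± 0.0878, adjusted p = 0.0021). It was lower in KO with IL-4 too, at 24161, 25021 and 21598 against 29987, 31541 and 33088 (-0.42 ± 0.0878, adjusted p = 0.00786). Untreated KO libraries were also all below WT, at 21288, 24635 and 23380 against 27986, 29618 and 30035, but Unc93b1 was not called there. In a fit of the groups compared the IL-4 calls of Unc93b1 (0.133) and Lgmn (0.0713) were lost. Lgmn, a lysosomal endopeptidase, was lower in KO untreated (-0.44 ± 0.0813, adjusted p = 0.00716, lost without KO replicate 1 or 3 at 0.0518 and 0.0543), with IFN-gamma (-0.42, adjusted p = 0.00101) and with IL-4 (-0.49, adjusted p = 0.0014). Slc15a3, a lysosomal peptide transporter, was higher in KO with IFN-gamma (0.32 ± 0.0969, adjusted p = 0.0198), and its relative Slc15a4 was lower (-0.29 ± 0.0653, adjusted p = 0.00369). The Slc15a3 call was lost in a fit of the groups compared (0.0846) and without KO replicate 1 or WT replicate 2 or 3 (up to 0.0988). Ctsl, a lysosomal cathepsin, rose with IL-4 in WT (2.09 ± 0.218, adjusted p = 1.18e-06) and KO (1.69 ± 0.218, adjusted p = 1.12e-05).

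Among 23 adaptors, kinases and ubiquitin ligases, 15 rose and 3 fell with IFN-gamma in WT, and 16 rose and 3 fell in KO, with list medians of 0.44 and 0.39. Over all genes 31.4% rose and 31.1% fell in WT, and 28.3% and 27.5% in KO. Myd88, the adaptor of all receptors here except Tlr3, rose from 1784, 1992 and 1874 to 3772, 4609.6 and 4640.1 in WT, without overlap (1.20 ± 0.107, adjusted p = 2.59e-08), and by 1.15 in KO (adjusted p = 5.69e-08). Irak2, a kinase downstream of it, rose from 2362, 2338 and 2302 to 10591, 8572 and 9024 in WT (adjusted p = 3.16e-11) and also in KO (1.54 ± 0.108, adjusted p = 1.32e-09), while Irak1 fell (-0.56 and -0.42). With IL-4, Myd88 fell instead, by 0.43 on the log2 scale in WT (adjusted p = 0.00553) and by 0.45 in KO (0.00363). KO against WT, in IFN-gamma cells 5 were higher and 3 lower, and in IL-4 cells 1 higher and 1 lower, beside 27.9% and 6.59% of all genes called. Ikbkg, the regulatory subunit of the IkappaB kinase, was higher in KO with IFN-gamma (0.56 ± 0.0827, adjusted p = 1.02e-04) and IL-4 (0.34 ± 0.0827, adjusted p = 0.02). The IL-4 call was lost in a fit of the groups compared (0.255) and without KO or WT replicate 2 or 3 (up to 0.0717). Traf3, which links Ticam1 to interferon induction, was higher with IFN-gamma (0.45 ± 0.0787, adjusted p = 4.77e-04), and Irak2 was lower (-0.35 ± 0.108, adjusted p = 0.0242). The Irak2 call was lost without WT replicate 1 (-0.26, adjusted p = 0.118) or KO replicate 2 (0.088).

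Of 9 transcription factors of the pathway, 8 rose with IFN-gamma in WT and 7 in KO, with list medians of 1.27 and 0.75. In IFN-gamma cells KO against WT gave 1 higher and 4 lower. Counts in this paragraph stand beside all genes, of which 31.4% rose and 31.1% fell in WT and 28.3% rose and 27.5% fell in KO. Between KO and WT in IFN-gamma cells, 14.3% of all genes were higher and 13.6% lower in KO. Irf8, a lineage factor of macrophages and dendritic cells, was at 32106, 29258 and 30268 in KO and 54516, 48996 and 49307 in WT, without overlap (-0.74 ± 0.0693, adjusted p = 9.57e-07), and its response was lower in KO (-0.59 ± 0.098, adjusted p = 0.00107). Rel, an NF-kappaB subunit, was lower (-1.15 ± 0.15, adjusted p = 3.12e-05) and Rela, another, was higher (0.33 ± 0.068, adjusted p = 0.00162). Of 14 inhibitors of the pathway, 10 rose and 2 fell with IFN-gamma in WT, 9 rose and 2 fell in KO, and 2 were higher and 4 lower in KO than in WT. Zfp36, which destabilizes cytokine messengers, was lower in KO (-1.01 ± 0.105, adjusted p = 2.83e-06), as was Tnfaip3, a ubiquitin-editing inhibitor of NF-kappaB (-0.59 ± 0.112, adjusted p = 8.71e-04). Tollip, an inhibitor that binds Irak1, was higher (0.25 ± 0.071, adjusted p = 0.0129).

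No receptor ligand was among the labelled treatments. Of 17 genes that receptor signalling is known to induce 16 were tested, and Il12a was too low. With IFN-gamma 11 rose and 3 fell in WT, and 11 rose and 2 fell in KO. Over all genes 31.4% rose and 31.1% fell in WT, and 28.3% and 27.5% in KO. Many of the tested response genes are also textbook IFN-gamma targets, such as the chemokine Cxcl10 (9.32 ± 0.286, adjusted p = 2.15e-14 in WT). KO against WT, 1 was higher and 5 were lower in IFN-gamma cells, beside 27.9% of all genes called. Il12b, a subunit of interleukin 12, was the higher one (4.59 ± 0.616, adjusted p = 3.92e-05). Il1b, the inflammatory cytokine interleukin 1 beta, had a mean ± SD of 2751 ± 1118 in KO and was at 42080.0, 14746 and 14349.7 in WT, where replicate 1 was far above the others (-3.00 ± 0.584, adjusted p = 0.00111). Without that library it was still lower in KO (-2.49, adjusted p = 0.00748).

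The genes with the most similar patterns over the 18 libraries were found by the mean absolute difference of centred log2 values among 9711 genes, where a smaller value means a closer match. The distance also grows with how much a gene itself varies, which in the same measure was 1.4 for Tlr9, 0.766 for Tlr8 and 0.192 for Tlr4, so distances are not ranked between receptors. Tlr9 was nearest to Mertk (0.29) and Ifit3b (0.328); the latter is an interferon-induced gene, and Mertk, a receptor for the uptake of dying cells, went from 2578, 2607 and 2654 in WT untreated to 12096, 12134 and 12486 in WT IFN-gamma libraries. Tlr8 was nearest to Itsn1 (0.249) and Elovl6 (0.252). Elovl6 encodes a fatty acid elongase and Itsn1 an endocytic scaffold. Tlr13 was nearest to Abcc3 (0.0845) and Gmip (0.106) and Tlr6 to Thada (0.0763) and Elf4 (0.0805). Tlr7 was nearest to Cntln (0.139) and Prkacb (0.151) and Tlr3 to Sppl2a (0.133) and Tmem229b (0.133). Tlr1 was nearest to Cd52 (0.186) and Cd164 (0.204), Tlr2 to Fbxl4 (0.129) and Nbeal2 (0.132) and Tlr4 to Vps33a (0.117) and Ube3c (0.12). All share libraries and depth with the receptors, so these are descriptions of 18 values per gene. No receptor was among the nearest genes of another receptor.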

How the data were processed

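RNA was sequenced from 18 libraries (6 groups of 3). STAR 2.5, HTSeq 0.6, DESeq2, edgeR and the build GRCm38 are named in the submitters' processing notes, with annotation and strand setting not given in the sources used here. Columns of the deposited table hold a signal in normalized counts, which the authors made by dividing reads by a size factor per library. With a tolerance of 0.1, whole reads were recovered from 100% of the values by the smallest step of a column. Identifiers were matched to GENCODE M21 (97.8%) for exon lengths.

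The 14288 genes that reached a normalized count of 10 in 3 or more libraries were fitted with limma 3.58.1 in R 4.3.3 on log2(normalized count + 1), with 6 group means, the trend option, two-sided moderated tests and 12 residual degrees of freedom. The added 1 makes log2 differences of low genes smaller, but a library at 0 can make them larger than a ratio of means. For Tlr5, KO against WT with IL-4, the fold on this scale was 0.111 and the ratio of means 0.156. Benjamini-Hochberg adjustment covered all genes in each of 9 comparisons, and 0.05 was the threshold. The fit was tested on simulated data. Alternatives were pseudocounts of 0.5 and 5, no filter, a mean of at least 50, TMM scaling, and edgeR 4.0.16 and DESeq2 1.42.0 on recovered reads. Further alternatives were only the groups compared, a replicate block, and leaving out each library. The block was the numeric code for responses and their differences. For KO against WT it was the replicate number, which joins different codes. For the pathway genes named all alternatives were added after seeing the data.

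The numbers pair the treatments of a genotype, because the labels give the same code, read here as the animal. After subtraction of group means, libraries of the same code correlated across genes at 0.00363 to 0.243 (13 of 18 pairs above 0.1). KO and WT libraries with the same number have different codes (-0.212 to 0.104). Chi-square values per gene showed no duplicated library.

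The members and lists were chosen with earlier results of these data known. Text names all members; from each list up to 3 called genes per direction with the largest change and a higher-group mean of 100 or more, of which some are described; and the 2 nearest genes by pattern. Ly96, the dendritic cell markers and Mertk values were added after their values were seen. Tlr5 dropped out under the mean filter of 50.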

Additional observations from a re-analysis of the deposited data

Results flagged for a closer look

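Tlr5 values lay on opposite sides of the untreated values in WT and KO libraries with both cytokines. With IFN-gamma, Tlr5 was higher than in the untreated library of the same code in 3 of 3 WT codes and lower in 3 of 3 KO codes. The difference of the responses was -2.18 on the log2 scale, with an adjusted p of 0.254 by limma, and 0.0466 with the code, read as the animal, as a block. With IL-4 it was again higher in 3 of 3 WT and lower in 3 of 3 KO codes, a difference of -4.1 (adjusted p = 0.524, and 0.0424 with the block). The values rest on 37 to 168 reads per group of 3 libraries. Both differences share the untreated libraries, where Tlr5 stood at 22.4, 13.5 and 11.9 in WT and 19.9, 26 and 53.1 in KO.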

How the results depend on the processing

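The counts of called receptors in untreated KO against WT, in the IFN-gamma responses and in the IL-4 responses stayed within 1.5 times under all alternatives. For KO against WT with IFN-gamma, 3 receptors were called, and 1 to 3 when a library was left out (1 without KO IFN-gamma replicate 1). For KO against WT with IL-4, 2 were called, but 1 at a mean of at least 50, 0 in a fit of only the groups compared, and 0 to 3 when a library was left out (0 without WT IL-4 replicate 1 or KO IL-4 replicate 1, and 1 without KO IL-4 replicate 2). For the difference of the IFN-gamma response, 0 were called, but 1 with edgeR, 1 with DESeq2, 1 in a fit of only the groups compared, 2 with the replicate block (Tlr8 and Tlr5), and 0 to 1 when a library was left out (1 without WT IFN-gamma replicate 1). For the difference of the IL-4 response, 0 were called, and 1 with the replicate block (Tlr5). Beside the calls given here and in the results, the replicate block changed no other call. For KO against WT that block was the replicate number, which joins different codes. The causes were not tested.

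Signs turned only for changes that were not called. Tlr13 in KO against WT with IL-4 (0.0011) was -0.0127 with TMM scaling and -0.00171 with DESeq2, and -0.0666 to 0.0399 when a library was left out. Other ranges over left-out libraries that crossed 0 were, untreated KO against WT, -0.13 to 0.0146 for Tlr2, -0.035 to 0.113 for Tlr3 and -0.113 to 0.0608 for Tlr4. With IFN-gamma they were -0.149 to 0.393 for Tlr3, -0.335 to 0.125 for Tlr7 and -0.328 to 0.0738 for Tlr9, and with IL-4 -0.23 to 0.0164 for Tlr3. For the difference of the IFN-gamma response they were -0.262 to 0.0493 for Tlr1, -0.178 to 0.364 for Tlr3, -0.0308 to 0.0884 for Tlr6, -0.0124 to 0.448 for Tlr7 and -0.106 to 0.298 for Tlr13. For IL-4 they were -0.0874 to 0.0528 for Tlr3 in WT, -0.0556 to 0.211 for Tlr4 in KO, and for the difference -0.0419 to 0.212 for Tlr1, -0.247 to 0.0195 for Tlr4 and -0.0193 to 0.168 for Tlr7. Not named above, Tlr2 with IFN-gamma passed in KO against WT in a fit of the groups compared (adjusted p = 0.049) and Tlr13 without WT replicate 3 (0.0472).

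Over all genes, 283 were called in untreated KO against WT, but 608 with DESeq2 and 971 in a fit of those groups. With IL-4 it was 941, and 128 in that fit. The difference of the IFN-gamma response gave 1307 calls, and 2073 with the block; that of IL-4 gave 1, and 21 with DESeq2, 12 with the block, 2 without a filter and 3 with a pseudocount of 5. When a library was left out, the counts over all genes were 124 (without KO untreated replicate 3) to 209 in untreated KO against WT, 497 (without KO IL-4 replicate 1) to 1009 with IL-4, 760 (without WT untreated replicate 2) to 1251 for the difference of the IFN-gamma response and 1 to 3 (without WT IL-4 replicate 2) for that of IL-4. Groups of 3 libraries limit all estimates, and few reads limit Tlr5.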

Other observations

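Transcripts of the mouse receptors Tlr11 and Tlr12, which bind a profilin of protozoan parasites, were near 0 in untreated cells and present with IFN-gamma. Tlr12 was at 1.95, 0 and 0.659 in the WT untreated libraries and 521, 999.9 and 1022 in the WT IFN-gamma libraries, where replicate 1 was the lowest. In KO it was at 0 in all untreated libraries and at 764, 604 and 558 with IFN-gamma. Tlr11 was at 0, 3.61 and 0.659 untreated and 34.4, 59.7 and 63.7 with IFN-gamma in WT, and at 0, 0 and 2.45 and 20.2, 29.4 and 26.1 in KO. Every IFN-gamma library of both genes was above every other library. The WT libraries of Tlr11 were all above the KO libraries with IFN-gamma (adjusted p = 0.308 by limma), and those of Tlr12 overlapped (-0.35 ± 0.47, adjusted p = 0.63). With IL-4 their highest counts were 9.84 and 6.56. They were chosen for mention after their values were seen.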
